A study of Homo sapiens with 6 samples.

Results

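Copines form a family of 9 genes in the deposited table, of which 7, CPNE1, CPNE2, CPNE3, CPNE4, CPNE5, CPNE7 and CPNE8, are described here out of 58735 genes in all. They were taken by gene name. The family was chosen on the measured level of CPNE4, which was low in one of the lines, so the difference in CPNE4 is given as a description with no test. The other members entered by family membership. CPNE6 and CPNE9, the remaining copines, are given beside them. The values are RNA-seq levels in HEK293, a line of human embryonic kidney origin. One group of 3 libraries came from cells that stably expressed Tensin-2 (TNS2), a focal adhesion protein, with a tyrosine changed to glutamate (Y483E), a residue used to resemble a phosphorylated tyrosine. It was set against 3 libraries from HEK293 cells stably expressing Tensin-2 with the same tyrosine changed to phenylalanine (Y483F), which cannot be phosphorylated. Cells with unmutated Tensin-2 or with no construct were not analysed here. The series text speaks of 2 lines and does not say whether each was 1 clone, so what the mutation did and what sets the lines apart otherwise cannot be told apart. The sample titles call the 3 libraries of each line biological replicates. They do not say whether these came from separate cultures, and p-values then measure only the spread between these libraries.

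Copines are cytosolic proteins with a pair of C2 domains, which bind phospholipid membranes when calcium rises, followed by a von Willebrand factor A domain that binds other proteins. They are regarded as carriers of calcium signals to the plasma membrane and to partner proteins. CPNE1 and CPNE3 are found in many tissues, while CPNE6 is known mainly from neurons.

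Reads assigned to genes, worked out from the deposited values, came to between 17204498 and 23284592 a library. TNS2 was measured at 0.753, 1.04 and 1.05 FPKM (fragments scaled by gene length and library depth) in Y483E, against 1.07, 1.16 and 1.16 FPKM in Y483F, with every Y483E library below every Y483F library (limma adjusted p 0.652, exact permutation p 0.1), and these values do not separate the construct from the cells' own gene. GAPDH averaged 758 ± 21.5 FPKM in Y483E and 715 ± 58.8 in Y483F. The HEK293 markers VIM, NEFL, INA, CDH2, KRT8 and KRT18 averaged 17.9 to 67.8 FPKM in each line, while PAX2 and LHX1 lay at 0.842 to 1.11 and NEFM at 0.233 and 0.243. Groups did not overlap for 4 of these 9, against 15% of all genes tested. CDH2 averaged 22.1 in Y483E and 17.9 in Y483F (log2 fold change 0.30, limma adjusted p 0.344, DESeq2 adjusted p 0.004). VIM averaged 67.8 and 60.5 and KRT8 46.1 and 40.7 in Y483E and Y483F, and LHX1 lay below at 0.842 in Y483E and 1.11 in Y483F. Their part in the differences described next was not tested. Of markers of other cells, PTPRC had 0 reads in all 6 libraries, PECAM1, ALB and GFAP stayed under 0.05 FPKM on average, COL1A1 lay at 0.657 and 0.678, and the epithelial gene EPCAM was at 42.3 and 43.7. A principal component analysis put the Y483E libraries at 8.08, 6.30 and 21.35 on its leading axis (36.4% of variance) and the Y483F libraries at 5.94, -23.34 and -18.33, so Y483F replicate 1 lay near Y483E. Its next axis (21.5%) held Y483E replicate 1 at 17.03 and Y483F replicate 1 at 15.23, while the other 4 libraries fell between -13.92 and -2.01. The submitters numbered the replicates 1, 4 and 5 without saying what the numbers mean. Differences between the lines are therefore also given for the libraries numbered 4 and 5, which are replicates 2 and 3, and for the libraries numbered 1.

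The promoters of CPNE1, the most abundant member, and of CPNE4, the member that differed most, are shown because the results turn on these genes. The CPNE4 windows lie inside the gene model of the files, whose outermost start is at 132285410. They are the 250 bases before the transcription start, read 5′ to 3′ on the minus strand from RefSeq (GRCh38.p14), with each CG dinucleotide in capitals. The windows are chr20:35664901-35665150 for CPNE1, chr3:132035015-132035264 for the innermost start that RefSeq lists for CPNE4 and chr3:132039607-132039856 for the outermost.
CPNE1: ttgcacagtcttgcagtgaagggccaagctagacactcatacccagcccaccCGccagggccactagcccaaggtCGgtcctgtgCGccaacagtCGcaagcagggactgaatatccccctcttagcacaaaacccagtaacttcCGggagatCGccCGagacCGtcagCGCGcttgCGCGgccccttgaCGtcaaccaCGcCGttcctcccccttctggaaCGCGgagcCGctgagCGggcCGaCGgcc
CPNE4, innermost start: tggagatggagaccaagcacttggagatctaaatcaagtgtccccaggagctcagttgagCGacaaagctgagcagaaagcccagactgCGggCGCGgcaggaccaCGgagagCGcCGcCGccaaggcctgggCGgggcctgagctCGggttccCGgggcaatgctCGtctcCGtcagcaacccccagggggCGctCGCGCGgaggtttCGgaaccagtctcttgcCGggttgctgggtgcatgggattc
CPNE4, outermost start: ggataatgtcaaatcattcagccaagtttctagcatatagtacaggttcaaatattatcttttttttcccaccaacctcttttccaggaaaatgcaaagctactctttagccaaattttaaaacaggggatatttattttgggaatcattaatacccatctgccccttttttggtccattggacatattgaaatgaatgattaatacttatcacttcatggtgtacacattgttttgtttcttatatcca
The CPNE1 window holds 21 CG dinucleotides, and 30.2% of 35116 promoter windows in the RefSeq table hold as many or more. The innermost CPNE4 window holds 19, reached by 34.6% of windows, although CPNE4 was measured far below CPNE1. The outermost CPNE4 window and the one between hold 0, against a median of 11 over all windows. A dinucleotide reads the same on both strands here, so 1 search covered both. Among the other members with an entry, CPNE2 has 37 CG (3.998% of windows hold as many), CPNE8 has 20, and the 3 windows of CPNE5 have 2, 7 and 18. CPNE3 and CPNE7 are named only.

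The members fell into an abundant and a scarce set. CPNE1 averaged 30.7 FPKM over the 6 libraries (SD 3.29), above 92.5% of protein-coding genes in the table. CPNE3 followed at 21.1 (SD 1.80), then CPNE8 at 5.78 (SD 0.373) and CPNE2 at 3.12 (SD 0.443), and the ranges of these 4 genes did not overlap. FPKM is a level per length of gene, so these values can be set side by side. CPNE2 lay 9.28-fold above CPNE9, the next in order. CPNE9 at 0.337 (SD 0.144), CPNE7 at 0.289 (SD 0.107) and CPNE4 at 0.188 (SD 0.153) had ranges that overlapped, and CPNE9 was above CPNE7 in 5 libraries and CPNE7 above CPNE4 in 4. CPNE5 was at 0.0295 (SD 0.0196), and CPNE6 had 2 reads in Y483F replicate 1 and 0 in the other 5 libraries, where the limit used here for a count of 0, 3 reads, equals 0.0215 to 0.0280 FPKM and covers counting error only. CPNE1 and CPNE3 together made up 82.5 to 86.2% of the summed FPKM of the 7 members in every library.

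**Figure D1:**
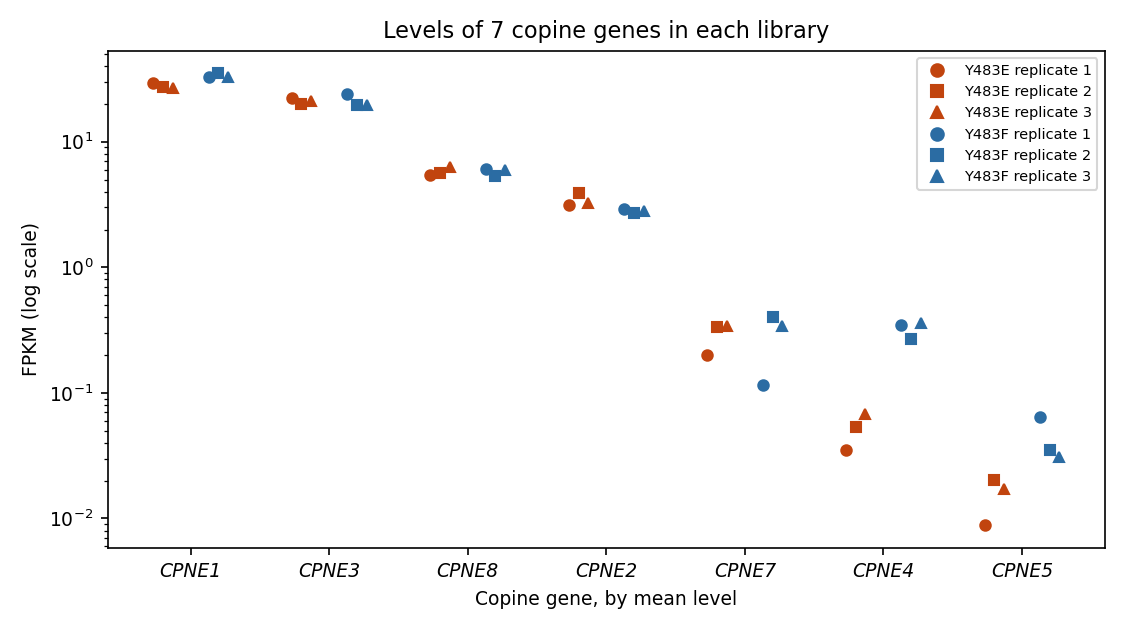
FPKM (log axis) of the 7 copine genes in each of the 6 libraries, ordered by mean level. Points are single libraries, with Y483E left of Y483F and marker shapes for replicates 1 to 3. CPNE1, CPNE3, CPNE8 and CPNE2 lie between 2.72 and 35.0 FPKM, CPNE7, CPNE4 and CPNE5 between 0.00883 and 0.401.

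CPNE4 (ENSG00000196353) was the member that differed most between the lines. The gene spans 751856 bases on the minus strand of chromosome 3 (131533555 to 132285410, GRCh38), of which 0.855% is exon. In mouse, Cpne4 is known from neurons such as retinal ganglion cells. It was measured at 0.0348, 0.0534 and 0.0675 FPKM in Y483E, against 0.345, 0.268 and 0.359 FPKM in Y483F. Every Y483E library lay below every Y483F library, and both replicates 1 lay with their own line. These levels rest on 4, 8 and 8 reads in Y483E and 38, 31 and 47 reads in Y483F. Exact Poisson 95% intervals, which cover counting error only, ran from 0.00948 to 0.0891, 0.0230 to 0.105 and 0.0292 to 0.133 FPKM in Y483E, and from 0.244 to 0.474, 0.182 to 0.381 and 0.264 to 0.478 FPKM in Y483F. They describe the precision of each value and test nothing. Averages were 0.0519 ± 0.0164 in Y483E and 0.324 ± 0.0491 in Y483F (SD, n = 3 each), a ratio of 0.160. In bulk RNA, fewer cells that express a gene and less RNA per cell cannot be told apart.

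The size of this difference on a log scale depends on how low values are treated. The log2 fold change of Y483E over Y483F was -1.48 ± 0.30 (SE) on log2(FPKM + 0.1), the scale used below, and -2.62 ± 0.33 by edgeR on the reads, which adds far less to each value. It was -0.33 with 1 FPKM added. Of 20502 genes tested on the log2(FPKM + 0.1) scale, 225 (1.10%) had a fold change as low as that of CPNE4 or lower, and in 91 of these every Y483E library lay below every Y483F library. Between the libraries numbered 1 the difference in log2(FPKM + 0.1) was -1.72, and between those numbered 4 and 5 it was -1.36. Both values come from the libraries on which the family was chosen, so they are description only. The authors' deposited table lists CPNE4 with a log2 fold change of -2.64.

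**Figure D2:**
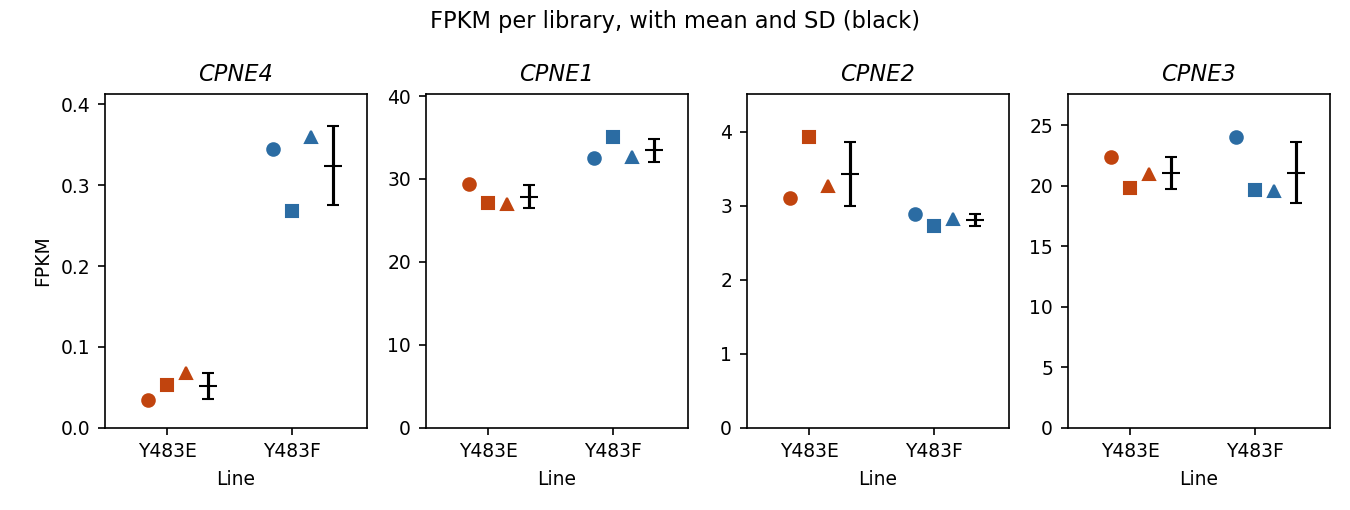
FPKM (linear axes from 0) of CPNE4, CPNE1, CPNE2 and CPNE3 in each library, Y483E left of Y483F; circle, square and triangle are replicates 1, 2 and 3, and black bars are the mean with SD of 3 libraries. The groups are apart for CPNE4, CPNE1 and CPNE2 and overlap for CPNE3.

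Most genes around CPNE4 differed less. Of 26 genes that overlap it or lie within 500 kb, 11 were tested, 8 higher and 3 lower in Y483E, with a median log2 fold change of 0.020 and a range from -0.86 to 0.48. The nearest protein-coding gene at lower coordinates, MRPL3 (a mitochondrial ribosomal protein), was at 78.2, 70.6 and 70.0 FPKM in Y483E and 79.3, 66.8 and 69.9 FPKM in Y483F. The nearest at higher coordinates, ACPP (prostatic acid phosphatase), averaged 0.0387 ± 0.0366 in Y483E and 0.0709 ± 0.0601 in Y483F, and its groups overlapped. The processed pseudogene AC117409.1 lies inside CPNE4 and was at 0.449 ± 0.121 in Y483E and 0.308 ± 0.165 in Y483F, on the other side of 0 from CPNE4. Over chromosome 3 the median of 1061 tested genes was -0.0050, with 515 above 0 and 546 below.

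CPNE1 (ENSG00000214078; chromosome 20, 35626031 to 35664956, minus strand), a broadly expressed copine known to act on the RELA subunit of NF-kB, was at 29.4, 27.2 and 27.0 FPKM in Y483E, against 32.6, 35.0 and 32.7 FPKM in Y483F. All Y483E libraries lay below all Y483F libraries, and the closest pair were the replicates 1. The averages were 27.9 ± 1.37 and 33.4 ± 1.39 (SD, n = 3 each) in Y483E and Y483F, a log2 fold change of -0.26 ± 0.053 (SE, 95% interval -0.39 to -0.14). CPNE1 did not pass limma's threshold of an adjusted p of 0.05 over all genes tested (unadjusted 0.00174, adjusted 0.344) or that of edgeR (adjusted p 0.125). An exact two-sided permutation test gave 0.1, the smallest that 3 libraries against 3 can give. DESeq2 called it (adjusted p 0.0213), as it did 0.965% of the genes it adjusted (0.521% lower, 0.444% higher), and the authors' deposited table lists it with an adjusted p of 0.0217. In the libraries numbered 4 and 5 edgeR gave -0.33 ± 0.045 with an adjusted p of 0.000251, where it called 15% of all genes (7.98% lower, 7.07% higher). Limma, with 0.0726% of genes called there, did not call it (adjusted p 0.0772). The replicates 1 differed by -0.15. By edgeR CPNE1 was also called without Y483E replicate 1 (adjusted p 0.0415) and without Y483F replicate 1 (0.0118), and was not called without any one of the other 4 libraries (0.42 to 0.628).

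Part of the CPNE1 gene model is shared with its neighbours. RBM12, an RNA-binding protein gene on the same strand, shares 575 exon bases with it, or 15.9% of the exon bases of CPNE1 and 8.58% of those of RBM12. AL109827.1, which shares 583 bases with CPNE1, had 0 reads in all 6 libraries. Reads from these bases cannot be assigned to 1 gene from the sequence alone, and the counting rule for them is not stated. RBM12 was at 25.11, 25.28 and 24.96 FPKM in Y483E and 26.8, 26.5 and 26.2 FPKM in Y483F, so its groups did not overlap either. Its log2 fold change was -0.08 ± 0.035, smaller than that of CPNE1, with a limma adjusted p of 0.51. The nearest protein-coding genes were NFS1 (iron-sulfur cluster assembly), at 5.02 ± 0.229 in Y483E and 5.47 ± 0.404 in Y483F, and SPAG4 (a nuclear envelope protein), at 0.907 ± 0.0947 in Y483E and 0.960 ± 0.242 in Y483F, and in both the groups overlapped. Of 24 tested genes within 500 kb of CPNE1, 5 were higher and 19 lower in Y483E, with a median of -0.16. Over chromosome 20 the median of 539 tested genes was -0.11, with 131 above 0 and 408 below, so CPNE1 lay on the side of most of its chromosome, and the part of this in its own value was not tested.

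**Figure D3:**
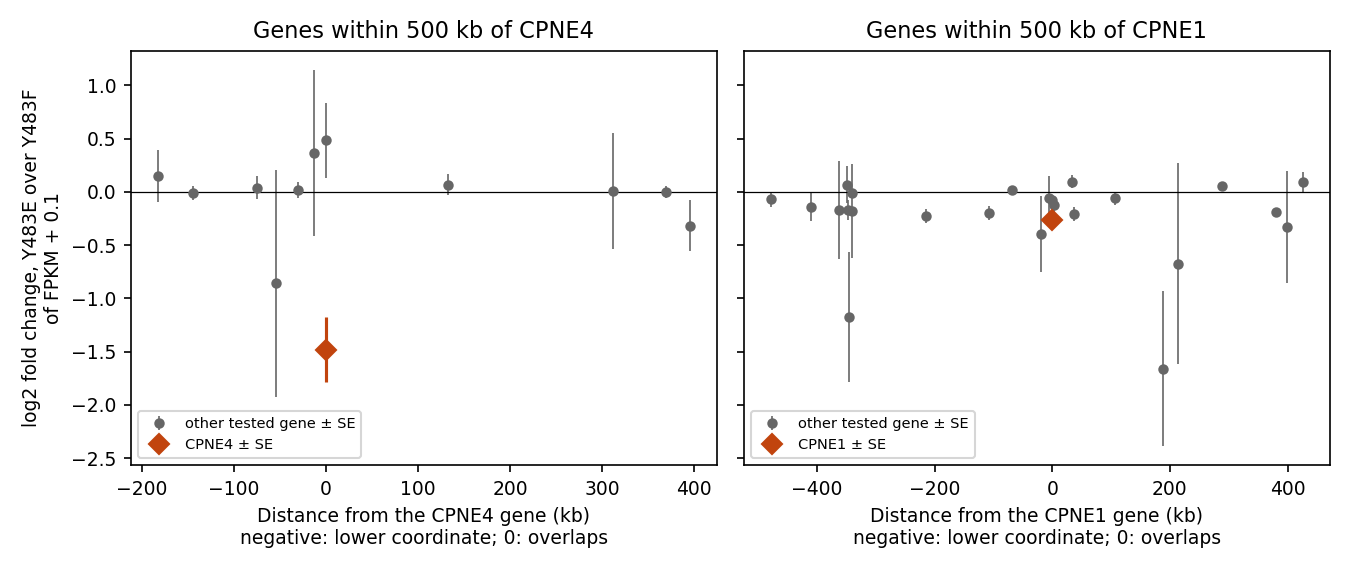
Log2 fold change of Y483E over Y483F on FPKM + 0.1, with SE, against distance in kb, for tested genes within 500 kb of CPNE4 (left) and CPNE1 (right); diamonds are the copine genes. The 11 genes around CPNE4 have a median of 0.020, and CPNE4 lies at -1.48; 19 of 24 genes around CPNE1 lie below 0, and CPNE1 lies at -0.26.

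CPNE2 (ENSG00000140848; chromosome 16, 57092537 to 57148367, plus strand) was the tested member whose Y483E libraries all lay above those of Y483F. It was at 3.11, 3.93 and 3.26 FPKM in Y483E, against 2.89, 2.72 and 2.82 FPKM in Y483F. The groups did not overlap, and Y483E replicate 2 was well above the other 5 libraries. The log2 fold change was 0.27 ± 0.10 (95% interval 0.031 to 0.52), with a limma adjusted p of 0.46, an edgeR adjusted p of 0.244 and an exact permutation p of 0.1. Without Y483E replicate 2 the log2 fold change was 0.18. In the libraries numbered 4 and 5 edgeR called CPNE2 (0.38 ± 0.095, adjusted p 0.0155), and limma did not (adjusted p 0.184). Its nearest neighbours FAM192A and NLRC5 were close in the lines, at 21.0 ± 0.442 and 0.843 ± 0.0299 FPKM in Y483E and 20.2 ± 0.864 and 0.839 ± 0.0575 FPKM in Y483F. Of 21 tested genes within 500 kb of CPNE2, 13 were higher and 8 lower in Y483E. Their median was 0.055 and their range -2.22 to 0.60. Groups did not overlap for 3 above and 2 below, against 7.58% above and 7.37% below over all genes tested. Over chromosome 16 the median of 980 tested genes was -0.050, with 419 above 0 and 561 below.

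CPNE3 and CPNE8 showed no difference beyond the spread between libraries. CPNE3 (ENSG00000085719; chromosome 8, 86514427 to 86561498, plus strand), known to bind the receptor ERBB2, was at 22.4, 19.8 and 20.9 FPKM in Y483E, against 24.0, 19.6 and 19.6 FPKM in Y483F. Its highest value was in Y483F replicate 1 and its next in Y483E replicate 1, so it followed the library number more than the line. The log2 fold change was 0.0032 ± 0.091, and its 95% interval from -0.21 to 0.22 bounds the difference that these libraries allow. CPNE8 (ENSG00000139117; chromosome 12, 38646822 to 38907430, minus strand) was at 5.48, 5.62 and 6.30 FPKM in Y483E, against 6.02, 5.31 and 5.97 FPKM in Y483F. The groups overlapped, with a log2 fold change of 0.0072 ± 0.081 (95% interval -0.19 to 0.20). The limma adjusted p was 0.996 for CPNE3 and 0.988 for CPNE8. CPNE8-AS1, annotated antisense to the start of CPNE8 without sharing exon bases, was at 2.06 ± 0.126 in Y483E and 2.12 ± 0.559 in Y483F. The nearest protein-coding neighbours had groups that overlapped: RMDN1 beside CPNE3 averaged 5.75 ± 0.226 in Y483E and 5.54 ± 0.251 in Y483F. ALG10B and KIF21A beside CPNE8 averaged 3.98 ± 0.224 and 7.14 ± 0.429 in Y483E, against 4.07 ± 0.232 and 7.05 ± 0.771 in Y483F.

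CPNE7 and CPNE5 rested on few reads, as did CPNE4 in Y483E. CPNE7 (ENSG00000178773; chromosome 16, 89575768 to 89597246, plus strand) was at 0.202, 0.338 and 0.338 FPKM in Y483E, against 0.115, 0.401 and 0.339 FPKM in Y483F, from 6 to 24 reads a library. In each line replicate 1 was the lowest of the 3, and the log2 fold change of 0.10 ± 0.39 (limma adjusted p 0.956) had a 95% interval from -0.84 to 1.03. CPNE7 lies 8940 bases from RPL13, a ribosomal protein gene at 349 ± 25.4 FPKM in Y483E and 293 ± 5.36 FPKM in Y483F, whose groups did not overlap (limma adjusted p 0.352). DPEP1, on its other side, averaged 0.210 ± 0.120 in Y483E and 0.175 ± 0.0538 in Y483F. CPNE5 (ENSG00000124772; chromosome 6, 36740775 to 36840002, minus strand) had 1, 3 and 2 reads in Y483E and 7, 4 and 4 reads in Y483F. Its mean was under 0.1 FPKM, so it was not in the fit. Its values of 0.00883, 0.0203 and 0.0171 FPKM in Y483E lay below the 0.0646, 0.0351 and 0.0311 FPKM in Y483F, with an exact permutation p of 0.1. Each Y483E library held at most 3 reads, so these values rest on very few reads. PPIL1, its protein-coding neighbour at higher coordinates, was at 52.0 ± 0.644 in Y483E and 52.4 ± 4.54 in Y483F.

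CPNE9 (ENSG00000144550) was at 0.407, 0.422 and 0.372 FPKM in Y483E, against 0.150, 0.4999 and 0.168 FPKM in Y483F. Y483F replicate 2 was the highest of all 6 and the other Y483F libraries the lowest, and the log2 fold change was 0.54 ± 0.38 (limma adjusted p 0.669). Both CPNE7 and CPNE9 thus varied more within Y483F than between the lines, with coefficients of variation of 52.8% and 72.2% in Y483F and 26.9% and 6.48% in Y483E. The abundant CPNE1 varied by 4.91% in Y483E and 4.16% in Y483F.

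**Figure D4:**
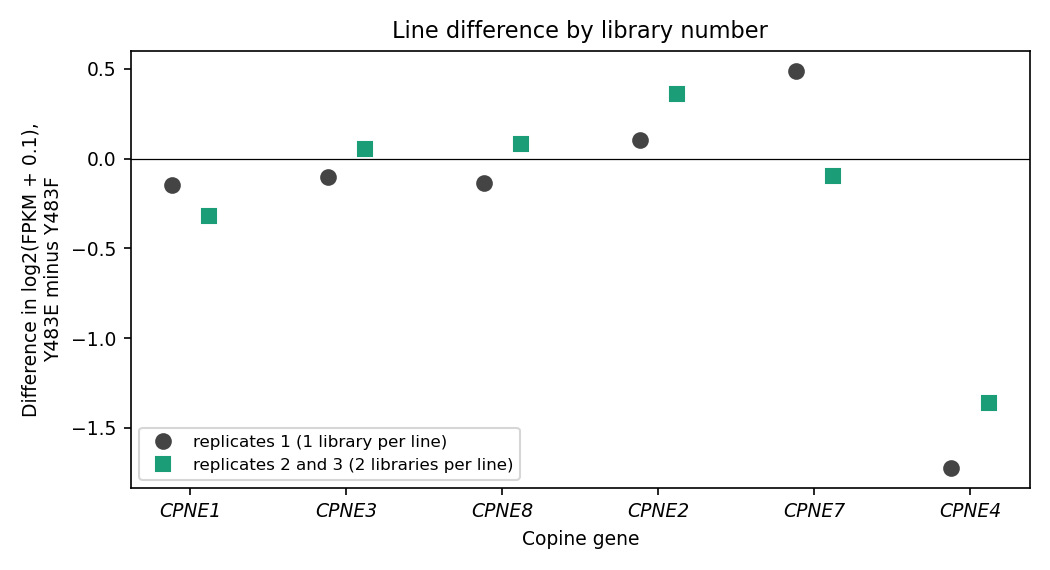
Difference in log2(FPKM + 0.1), Y483E minus Y483F, between the replicates 1 (circles, 1 library per line) and between replicates 2 and 3 (squares, 2 libraries per line) for the 6 members in the limma fit. CPNE4, CPNE1 and CPNE2 keep their sign, at -1.72, -0.15 and 0.10 between the replicates 1 and -1.36, -0.32 and 0.36 in the others; CPNE3, CPNE8 and CPNE7 change sign.

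Across the family, 6 of the 7 members were in the limma fit on the log2(FPKM + 0.1) scale, CPNE4 among them with no test read. Of these 6, 4 lay above 0 and 2 below, with a median of 0.0052 against -0.0049 over all 20502 genes tested. CPNE4 aside, limma and edgeR called 0 of the other 5 members, with CPNE1 and CPNE2 at an unadjusted p under 0.05 by limma, and DESeq2 called CPNE1. Limma called 0 of all genes tested (0%), with 2037 (9.94%) at an unadjusted p under 0.05. By edgeR 7 of 15992 genes (0.0438%) passed and by DESeq2 126. Among the members in the fit groups did not overlap for CPNE4 and CPNE1, both below, and for CPNE2, above. Of all genes tested, 15% had groups that did not overlap (7.37% below, 7.58% above). CPNE5, which was outside the limma fit, also lay below without overlap. Since the family was chosen for CPNE4, nothing is read from this count. The summed FPKM of the 7 members was 60.7, 56.9 and 57.9 in Y483E, against 66.0, 63.4 and 61.8 in Y483F. CPNE1 averaged 27.9 FPKM of the mean sum of 58.5 in Y483E and 33.4 of 63.7 in Y483F. CPNE1 made up 47.6 ± 0.963% of the sum in Y483E and 52.5 ± 2.98% in Y483F. The ratio of CPNE1 to CPNE3 was 1.32, 1.37 and 1.29 in Y483E and 1.36, 1.79 and 1.67 in Y483F, so Y483F replicate 1 lay among the Y483E libraries in this ratio.

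Annexins bind phospholipids in the presence of calcium without C2 domains, and 9 of 12 were tested, all 9 with a log2 fold change above 0 and a median of 0.12. Limma called 0 of them (1 at an unadjusted p under 0.05, against 9.94% of all genes tested), as did edgeR and DESeq2. ANXA5 was at 53.8, 55.2 and 60.5 FPKM in Y483E and 54.4, 50.8 and 50.5 FPKM in Y483F, and ANXA7 at 32.99 ± 0.566 in Y483E and 32.5 ± 1.12 in Y483F. Their groups overlapped in all 9 genes. This direction lay in the libraries numbered 4 and 5, with a median of 0.19 and 9 of 9 higher, while between the replicates 1 the median was -0.016 with 3 higher and 6 lower. EdgeR called 4 of 9 annexins (ANXA1, ANXA2, ANXA5 and ANXA11) higher in those libraries, where it called 7.07% of all genes higher.

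Of 60 other genes with C2 domains (synaptotagmins, extended synaptotagmins, ferlins, protein kinases C and ubiquitin ligases), 43 were tested, 26 higher and 17 lower, with a median of 0.022, a range from -0.51 to 0.25. Limma called 0 (2 at an unadjusted p under 0.05, against 9.94% of all genes tested), as did edgeR and DESeq2. Groups did not overlap for 3 genes below and 3 above, against 7.37% below and 7.58% above over all genes tested. With only libraries numbered 4 and 5, edgeR passed 3 of 46 as higher (ESYT1, NEDD4 and NEDD4L) and 2 as lower (SYTL1 and PLCG1). Over all genes it passed 7.07% as higher and 7.98% as lower there. SYTL1, NEDD4, PLCG1 and NEDD4L were named after their values were seen. PLCG1 (a phospholipase C) was at 14.9 ± 0.275 in Y483E and 17.4 ± 1.10 in Y483F. NEDD4L (a ubiquitin ligase) was at 3.12 ± 0.0745 in Y483E and 2.67 ± 0.0886 in Y483F. ESYT1, a tether between the endoplasmic reticulum and the plasma membrane, was at 30.4 ± 0.848 in Y483E and 28.3 ± 1.501 in Y483F, and CC2D1A at 17.3 ± 0.681 in Y483E and 17.3 ± 2.05 in Y483F. All 12 genes for reported binding partners of copines were tested, 9 higher and 3 lower, with a median of 0.037. Groups did not overlap for 3 of them, all above (RAC1, UBE2M and MAP2K1), against 7.58% above over all genes tested. In the libraries numbered 4 and 5 edgeR called RAC1 higher (adjusted p 0.0139), where it called 7.07% of all genes higher. RAC1 and MAP2K1 were named after their values were seen. Again 0 were called by limma (2 at an unadjusted p under 0.05), edgeR or DESeq2. RACK1, a scaffold reported to bind CPNE3, was at 354 ± 15.9 in Y483E and 342 ± 13.2 in Y483F, and UBE2M, the E2 enzyme for NEDD8, at 136 ± 2.94 in Y483E and 127 ± 1.86 in Y483F (limma adjusted p 0.471).

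**Figure D5:**
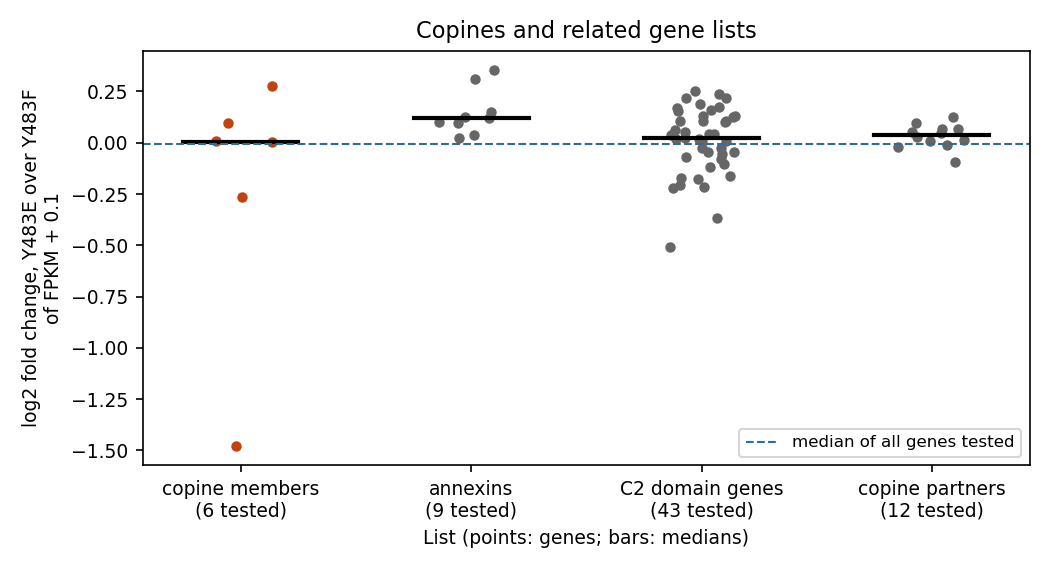
Log2 fold change of Y483E over Y483F on FPKM + 0.1 for tested copine members, annexins, other C2 domain genes and copine partners; points are genes, bars are medians and the dashed line is the median of all genes tested (-0.0049). CPNE4 at -1.48 lies below every other gene drawn.

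The genes whose pattern over the 6 libraries was most like that of each member were ranked by the root mean square difference of centred log2(FPKM + 0.1) among 13609 protein-coding genes. For CPNE4 these were NUDT4B (0.33), CST7 (0.33), LY6G6D (0.35), S100P (0.35) and VTN (0.36), against a spread of CPNE4 itself of 0.82 (SD over 6 libraries). The reads behind them were few (0 to 19 a library), with averages of 0.0354 to 0.232 FPKM in Y483E and 0.211 to 0.560 FPKM in Y483F, and NUDT4B has a near-identical copy, so its reads are uncertain. For CPNE1 the closest were RUBCN (0.014) and UBE2G2 (0.019), for CPNE3 PRDX3 (0.017) and BORCS7 (0.019), and for CPNE8 DYNLT3 (0.023) and GLO1 (0.025). For CPNE2 they were ZNF697 (0.034) and STAT4 (0.045), and for CPNE7 VSTM2L (0.11) and UNC13A (0.13). These likenesses over 6 libraries are descriptions only.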

How the data were processed

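RNA from 6 libraries was measured after poly-T selection, per the labels' protocols, which name a directional and a non-directional way to make the library, so strandedness is unknown. The submitters' processing notes name featureCounts 1.5.0-p3, DESeq, HISAT2 2.0.5, DESeq2 and StringTie 1.3.3b; their roles and the genome build are not given in the sources used here. The authors deposited FPKM values for 58735 genes. The authors' comparison table lists, for 1652 genes, raw read counts, FPKM, a signal (counts divided by a size factor), log2 fold changes and p-values, per the file headers. All 58735 gene positions equal those of GENCODE 29 on GRCh38.

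FPKM times gene length times a library total, worked out from the listed counts, gave whole reads (within 0.01) for 100% of values above 0, equal to the listed counts in all 1652 genes. The test was limma 3.58.1 (trend, two-sided) on log2(FPKM + 0.1), all 6 libraries, genes averaging 0.1 FPKM or more, Benjamini-Hochberg over 20502 genes, threshold 0.05. That filter keeps scarce copines in. The same values were compared by exact permutation tests. The number of reads limits precision for scarce genes. Alternatives were edgeR 4.0.16 (quasi-likelihood, TMM) and DESeq2 1.42.0 on the recovered reads, other pseudocounts and filters, scaling, the replicate block, leaving out each library, and the libraries numbered 4 and 5 alone. Those of edgeR with libraries left out or with the block were added after seeing the data. Fits were also run on simulated counts with the same dispersion (spread beyond counting error) for every gene and no effect of replicate number. That run checked the code only and says nothing about the differences given here. The 7 members and the gene lists were chosen with earlier results of these data known. Genes named were the 9 copines, TNS2, GAPDH and markers, and for each list up to 4 genes past the threshold or else the 2 most abundant. Some, not all, of the genes that overlap a member or are its nearest protein-coding neighbours were named. The 5 (CPNE4) or 2 (others) closest in pattern were named as well. Other list genes were named after their values were seen.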

Additional observations from a re-analysis of the deposited data

How the results depend on the processing

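Limma called 0 genes at the stated settings, with the pseudocounts, filters, scaling and replicate block tried, and 0 to 1 without 1 library. EdgeR called 7 with either scaling, 6 with the replicate block by edgeR, 1 to 1000 without 1 library (1000 without Y483F replicate 1, 174 without Y483E replicate 1), DESeq2 126, and in the libraries numbered 4 and 5 limma called 15 and edgeR 2454. The cause was not tested. CPNE1 stayed lower in every setting, between -0.31 and -0.23 without 1 library, and was called by DESeq2 (-0.26) and by edgeR in the libraries numbered 4 and 5 (-0.33). CPNE2 stayed higher, between 0.17 and 0.36 without 1 library, and was called only by edgeR in the libraries numbered 4 and 5 (0.38). The values of CPNE4 are description only, since the family was chosen for it in these libraries. Its log2 fold change was -0.33 and -0.58 with pseudocounts of 1 and 0.5 FPKM. By edgeR it was -2.62 with either scaling, -2.61 with the replicate block and -2.38 in the libraries numbered 4 and 5. DESeq2 gave -2.64. Without 1 library CPNE4 ran from -1.58 to -1.40 by limma and from -2.82 to -2.42 by edgeR, which are different scales. CPNE5 gave -0.31 on log2(FPKM + 0.1) and -1.47 by DESeq2, from 1 to 7 reads a library. Values near 0 changed sign: CPNE3 was -0.0088 by edgeR, -0.0064 with DESeq2 size factors, -0.0042 by edgeR with the replicate block (limma with the block kept 0.0032), -0.0017 by DESeq2 and -0.058 to 0.10 without 1 library, CPNE8 was -0.00059 by edgeR and -0.057 to 0.047 without 1 library, and CPNE7 was -0.098 (limma) and -0.13 (edgeR) in the libraries numbered 4 and 5 and -0.32 to 0.34 without 1 library. Deviations of same-numbered replicates from their line means had correlations of 0.035, 0.078 and -0.112 over 12833 genes. Both replicates 1 nevertheless lay close on the principal component with 21.5% of variance, at 17.03 (Y483E) and 15.23 (Y483F). These correlations therefore do not settle whether the numbers pair the libraries. The replicate block changed no call among the members. Depth limits CPNE4, CPNE5, CPNE7 and CPNE9, with at most 47 reads a library.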
